A study of Mus musculus with 661 samples.

Results

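Chemokine ligands other than Cxcl12 were taken from the count table by symbol: every gene named Ccl or Cxcl with a number, with a letter a or b allowed after the number, and Cx3cl1, leaving out Cxcl12. This gave 36 of 45771 nuclear genes. Ligands of the family with other names (Pf4, Ppbp and Xcl1), the receptors and Cxcl12 itself are given near the end for comparison only. Chemokines are small secreted proteins that bind G protein-coupled receptors and steer the movement of white blood cells. Some members are made at rest and hold cells in their place, while others, such as Ccl2 and Cxcl1, are made soon after a cytokine signal and draw in monocytes or neutrophils. Perivascular mesenchymal cells and the endothelium are known sources of both kinds in bone marrow.

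The study asks how the stroma that houses blood stem cells changes as mice grow old. Stromal cells were sorted 1 to a well and sequenced by a plate protocol that reads whole transcripts without molecular identifiers. All animals were wild-type C57BL/6 mice of both sexes without treatment, either young (weeks old) or old (well over a year). All sorted cells lacked the blood proteins Ter119 and CD45. From the endosteum, the bone-lining tissue, came MSC-S (CD31 negative, Sca-1 and CD51 positive), mOPr (CD31 and Sca-1 negative, CD51 and PDGFRα positive, LepR negative), OPr (as mOPr but PDGFRα negative) and the arterial endothelial cells AEC (CD31 positive, Sca-1 high, CD105 low). From the central marrow came MSC-L (Sca-1 negative, CD51, PDGFRα and LepR positive) and the sinusoidal endothelial cells SEC (CD31 positive, Sca-1 low, CD105 high). Endosteal cells were released by a longer digestion than marrow cells, so tissue and digestion cannot be told apart in any comparison of MSC-L or SEC with the rest. Age is compared within a population, where the digestion was the same.

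The deposited counts hold 661 cells, 336 young and 325 old, and 653 are used here. The numbers of young and old cells are 53 and 58 for MSC-L, 59 and 59 for MSC-S, 44 and 21 for OPr, 26 and 26 for mOPr, 84 and 82 for AEC, and 70 and 71 for SEC. The 8 cells left out were all old OPr cells with high Il1b and are described in the last paragraph. Each population and age is treated as 1 pooled sample, because the labels name no mouse, and no p-value is given. A level is the gene's counts summed over the cells of a group, divided by the nuclear gene counts of that group and scaled in the usual way to CPM. Its 95% interval covers counting error only, and reads copied by PCR make even that too narrow. A cell is said to carry a gene at 10 CPM or more in that cell.

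The depth of sequencing differed between groups. The median nuclear counts per cell, young and old, were 463538 and 352562 in MSC-L, 602470 and 693396 in MSC-S, and 686077 and 775926 in OPr. They were 516983 and 444242 in mOPr, 409992 and 414261 in AEC, and 314844 and 302201 in SEC. Shares of cells were therefore also computed after thinning each cell to 100000 counts, without the 7 cells that have fewer. Library numbers fall in 3 ranges: all SEC libraries lie in range 3, AEC libraries in all 3, and those of the other populations in ranges 1 and 2. Only AEC shares range 3 with SEC, with 24 young and 23 old cells. A difference between SEC and any mesenchymal population cannot be told apart from a difference between library ranges.

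Lists of marker genes were read first. The 10 endothelial markers together reached 11375 CPM in young and 11563 CPM in old AEC, and 11115 and 12157 CPM in SEC, against 107 and 116 CPM in MSC-L. The 10 mesenchymal markers reached 33338 and 27949 CPM in MSC-S against 155 and 323 CPM in AEC. Sinusoidal markers separated SEC (17944 and 13479 CPM) from AEC (1977 and 1188 CPM), and arteriolar markers ran the other way (2756 and 3117 CPM in AEC, 314 and 1079.8 CPM in SEC).

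Some cells are doubtful. In SEC the mesenchymal markers reached 539 and 508 CPM, which fell to 75.5 and 187 CPM outside cluster E1, a cluster of 14 cells (13 SEC and 1 AEC). The study labelled E1 as doublets. The 6 genes of the MSC-L list rose with age in populations gated as LepR negative: from 5589 to 30272 CPM in OPr and from 998 to 21133 CPM in mOPr. Lepr itself went from 362 to 1778 CPM in OPr and from 144 to 1047 CPM in mOPr. Clusters M1 and M2, which hold most MSC-L, also held 10 of 21 old against 3 of 44 young OPr and 14 of 26 old against 2 of 26 young mOPr. Ratios of the ligands that passed the filter in OPr or mOPr are given below with and without these clusters. For the receptors and Cxcl12 some values are given with them only. Of the kept cells, 3 carried at least 7 of 15 blood-cell markers: an old SEC cell with 11, treated separately, and 2 old OPr cells with 7 each. Results that move with these cells are named as they come, and the part of the marker shifts in the result was not tested.

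Of the 36 ligands, 3 had no count in any kept cell (Ccl1, Ccl20 and Ccl27b) and 10 had fewer than 100 counts in all. Another 13 had 100 counts or more but passed the filter in no population; the filter asks for 100 counts over both ages and for at least 10% of the population's cells, young and old pooled, to carry the gene. The remaining 10 passed in at least 1 population: Ccl2, Ccl7, Ccl9, Ccl11, Cx3cl1, Cxcl1, Cxcl9, Cxcl10, Cxcl14 and Cxcl16. Only Cx3cl1 and Cxcl16 passed in all 6. This left 31 ratios of old to young. A ligand is called higher or lower at a 2-fold difference, which gave 13 higher, 3 lower and 15 smaller than 2-fold. Without the cell holding most counts of the ligand, all 16 called ratios kept their direction and 15 stayed above 2-fold.

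**Figure D1:**
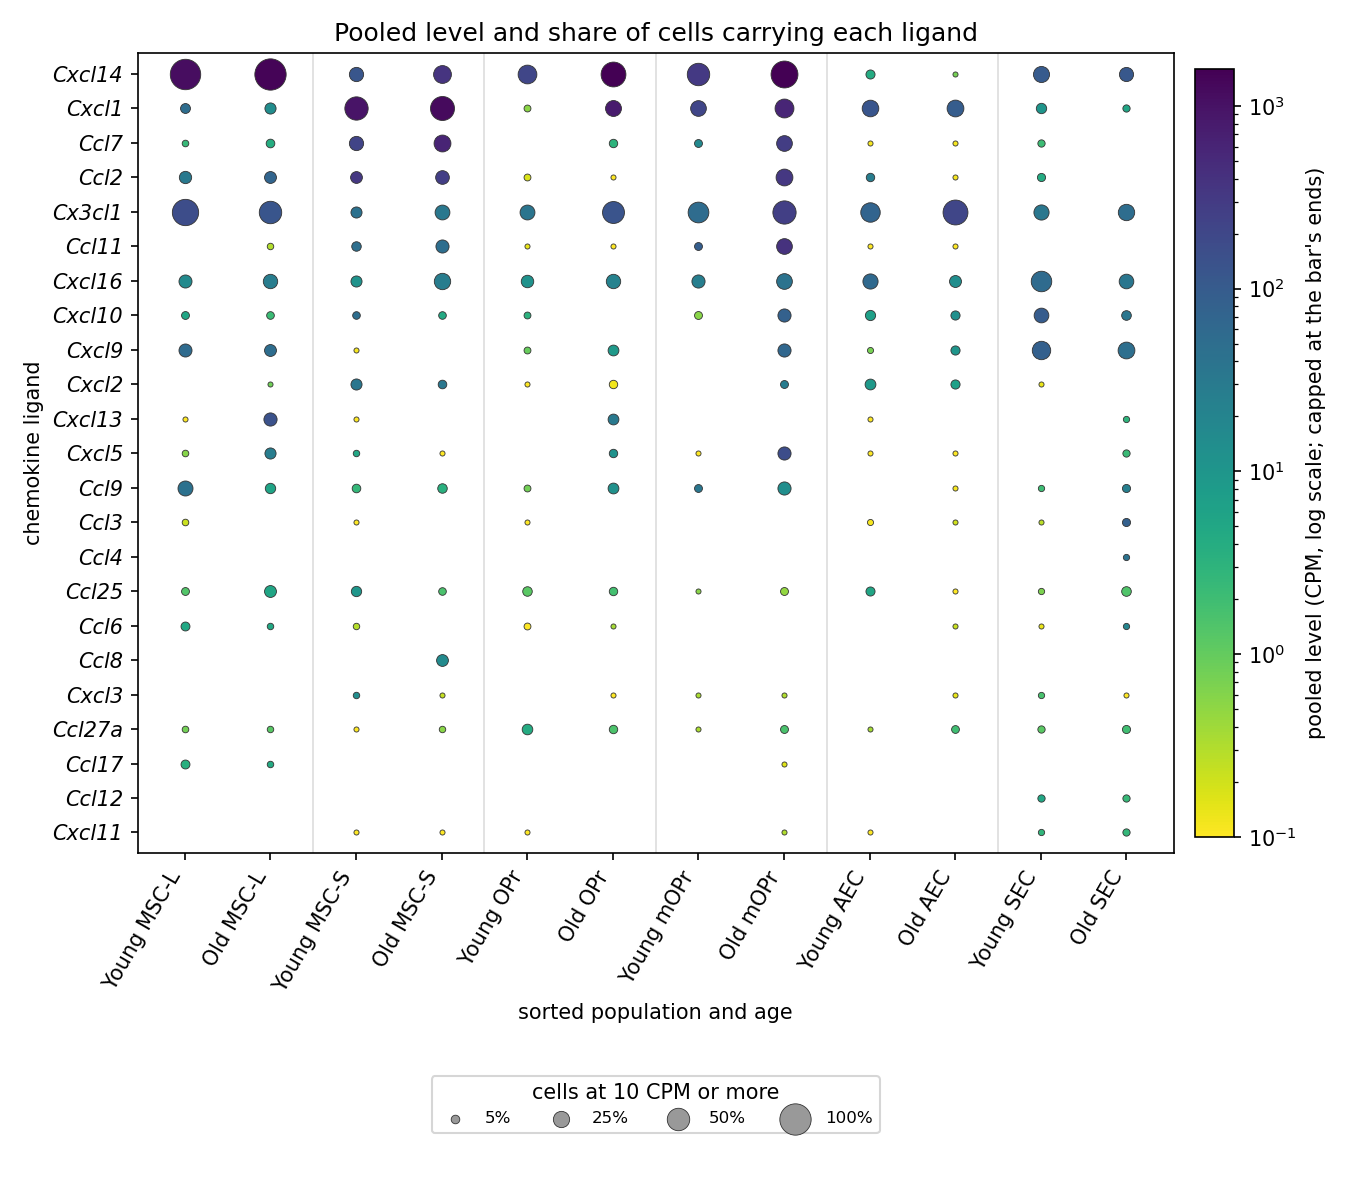
Levels of 23 chemokine ligands in the 12 groups. Colour gives the pooled level in CPM on a log scale and dot size the percent of cells at 10 CPM or more; Cxcl14, Cxcl16 and Cx3cl1 are spread over most groups, while most other ligands are dense in a few.

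Called ligands were most frequent in mOPr. There, 6 of the 7 ligands that passed were higher in old cells, against 23.1% of the 9562 genes tested, and 0 were lower, against 18.2%. The median log2 ratio of the 7 was 2.32, and that of all genes 0.11. Outside clusters M1 and M2, 4 of 7 were higher, against 22% of 9347 genes, and 1 was lower, against 32.2%. All 12 old mOPr cells there lie in M5, against 7 of the 24 young cells, so the ages differ in cluster too. The same holds for the mOPr ratios outside M1 and M2 given below. The filter pools the ages, and Ccl2, Ccl7 and Ccl11 passed it mainly through old cells, with 0, 1 and 1 young carriers against 7, 6 and 6 old carriers. In OPr, 2 of 3 ligands were higher (24.6% of 10414 genes) and 0 lower (16.3%), with medians of 1.78 for the ligands and 0.21 for all genes. Outside M1 and M2, 2 ligands passed in OPr, 1 higher (22.5% of 9906 genes) and 1 lower (26.1%). There 7 of 11 old and 14 of 41 young OPr cells lie in M5. In MSC-S, 3 of 7 were higher (6.36% of 10112 genes) and 0 lower (7.35%), with medians of 0.35 and -0.04. Scaling by median of ratios instead of total counts moves all genes of OPr by -0.36 and all genes of mOPr by -0.14 on the log2 scale. It shifts every ligand of a population alike, so directions that stay under it show no stability.

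The other populations had called ligands in both directions or only lower. In MSC-L, 1 of 6 was higher (9.99% of 10245 genes) and 1 lower (8.93%), with a median of 0.12 for the ligands and -0.00 for all genes. In AEC, 1 of 3 was higher (5.65% of 9748 genes) and 1 lower (7.16%), with medians of -0.43 and -0.03. In SEC, 0 of 5 were higher (8.08% of 9939 genes) and 1 was lower (5.53%), with medians of -0.70 and 0.02. The lower ligands of MSC-L (Ccl9) and SEC (Cxcl10) passed the filter mainly through young cells. In old cells each was carried by fewer than 10%.

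Summed over all 36 ligands, the pooled level was highest in old mOPr and lowest in young OPr. Young and old sums were 1523 and 1909.9 CPM in MSC-L, 1852 and 2649.5 CPM in MSC-S, 269 and 2554 CPM in OPr, and 756 and 3869 CPM in mOPr. They were 313 and 354 CPM in AEC and 406 and 476 CPM in SEC; the old SEC sum is 313 CPM without the blood-marker cell. Cxcl14 alone made up 74.6% of the young and 74.5% of the old sum in MSC-L, while Cxcl1 made up 51.6% and 46% in MSC-S. In AEC the largest share passed from Cxcl1 (40.4% of the young sum) to Cx3cl1 (60.2% of the old sum). Among young AEC, Cxcl1 led in library range 2 only, at 222 CPM; in range 1 it stood at 33.3 CPM below Cxcl16 at 94 CPM, and in range 3 at 2.78 CPM below Cx3cl1 at 32.3 CPM.

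The number of ligands per cell was counted too. The mean number carried by a young and an old cell was 2.64 and 2.67 in MSC-L, 1.64 and 2.27 in MSC-S, 0.98 and 2.14 in OPr, and 1.46 and 3.31 in mOPr. It was 1.21 and 1.23 in AEC and 1.71 and 1.32 in SEC. After thinning, mOPr still went from 1.88 to 3.58, OPr from 1.05 to 2.47 and SEC from 2.00 to 1.60. Of the 653 cells, 134 (20.5%) carried no ligand, and the most in any cell was 8.

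Levels of different genes are compared per kilobase of exon. On that scale Cxcl14 ranked first among the ligands in MSC-L (622 young and 779 old), OPr (114 and 847) and mOPr (177 and 883). In MSC-S the order was Cxcl1 (510), Ccl2 (288) and Ccl7 (287) in young cells and Ccl7 (761), Cxcl1 (651) and Ccl2 (241) in old cells; the young Ccl2 value comes to 97% from 1 cell. In AEC Cxcl1 led in young cells (67.4), and Cx3cl1 (54.2) stood just above Cxcl1 (50) in old cells.

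Cxcl14 is a CXC ligand made by resting epithelia and stroma. It had the largest share of ligand counts pooled over all kept cells, 34.1%, which depends on cell numbers and depth per group. Cxcl1, which led in young MSC-S and young AEC, stood at 201 per kilobase over these cells, and Cxcl14 at 242. Its young and old levels were 1135 and 1423 CPM in MSC-L, 119 and 372 CPM in MSC-S, 208 and 1548 CPM in OPr, and 324 and 1614 CPM in mOPr, then 4.22 and 0.746 CPM in AEC and 101 and 113 CPM in SEC. It is thus high in MSC-L at both ages, somewhat higher still in old OPr and old mOPr, and near absent from AEC. It was among the genes used by the study to define its clusters, so its contrast between clusters is partly built in.

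In MSC-L nearly every cell carried Cxcl14, 94.3% of young and 100% of old cells, and its log2 ratio was 0.33. In MSC-S the ratio was 1.65 (95% interval 1.60 to 1.70), a 3.14-fold rise. It was 3.97 in library range 1, from 20.2 to 317 CPM, and 1.18 in range 2, from 172 to 391 CPM. The share of MSC-S cells carrying it went from 18.6% to 30.5%, and from 22% to 35.6% after thinning. In MSC-S Lepr also went from 111 to 234 CPM and Cxcl12 from 297 to 847 CPM. The part of this shift in the Cxcl14 ratio was not tested.

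The rise of Cxcl14 in OPr was 7.46-fold (log2 2.90, interval 2.86 to 2.94), and in mOPr 4.99-fold (log2 2.32, interval 2.27 to 2.36). Outside M1 and M2, Cxcl14 in OPr stood at 72.1 CPM in 41 young and 851 CPM in 11 old cells, a log2 ratio of 3.56. Only 3 of these old cells carried it, and 95.2% of their counts lay in 1 cell, so this ratio rests on that cell; 12 of the young cells carried it. In mOPr the 14 old cells in M1 or M2 stood at 2812 CPM and the 12 in M5 at 282 CPM, while the 24 young cells outside M1 and M2 stood at 291 CPM. Outside those clusters the mOPr ratio was -0.04 (interval -0.13 to 0.04). Only 7 of these 24 young cells lie in M5, so the ages differ in cluster there too. A change per cell and a change in the mix of cells cannot be told apart in mOPr.

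Cxcl14 in SEC is highest in cluster E1. The 9 young and 4 old SEC cells of E1 stood at 535 and 1347 CPM, and the 61 and 67 other SEC cells at 24.2 and 28.1 CPM. Of the 30 SEC cells that carried Cxcl14, 13 were in E1 and 13 in the sinusoidal cluster E7. Of the same 30, 19 also carried at least 3 of the 10 mesenchymal markers, with a median of 5.0. Of the 111 that did not carry it, 1 reached 3 markers, and the median was 0.0. E1 cells held 29545 CPM of Cxcl12 and 970 CPM of Col1a2.

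Cxcl16, a membrane-bound ligand of Cxcr6, was present in all populations at low to moderate levels. Its young and old levels were 16.1 and 27.6 CPM in MSC-L, 11.2 and 27.7 CPM in MSC-S, 11.8 and 22.3 CPM in OPr, 26 and 40.4 CPM in mOPr, 59.4 and 14 CPM in AEC, and 56.7 and 35 CPM in SEC. The pooled level of old cells is higher in all 4 mesenchymal populations and lower in both endothelial ones. In young mice the endothelial cells are the higher of the 2 kinds, and in old mice AEC is the lowest of all groups at that age. The Cxcl16 gene overlaps Zmynd15 on the opposite strand, and the counts do not separate strands.

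The fall of Cxcl16 in AEC was 4.24-fold, with a log2 ratio of -2.08 (interval -2.23 to -1.94). Intervals of the levels do not overlap, 56.8 to 62 CPM in young and 12.8 to 15.3 CPM in old cells. All 3 library ranges gave a fall: from 94 to 15.1 CPM, from 51.4 to 16.2 CPM and from 27.7 to 5.5 CPM. By cluster the levels went from 26.8 to 7.99 CPM in E3, from 62.8 to 24.1 CPM in E4 and from 111 to 2.63 CPM in E5. They were 64.5 and 54.2 CPM in E7. The study counted E3 and E4 as arteriolar and did not count E5 with them. Fewer old AEC carried it, 12.2% against 21.4%, or 15.9% against 25.3% after thinning. Both shares are small, so the level rests on a minority of cells. In SEC the log2 ratio was -0.70, with 41.4% of young and 19.7% of old cells carrying it, and -0.25 in E7. The sinusoidal markers given above fell in AEC too, and Stab2 went from 217 to 9.35 CPM there. The part of this shift in the AEC ratios, here and for Cx3cl1 below, was not tested.

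In MSC-S the ratio of Cxcl16 was 1.31 (interval 1.14 to 1.48), a 2.47-fold rise, with 0.77 in range 1 and 1.39 in range 2. Carrying cells went from 10.2% to 25.4%. In MSC-L, OPr and mOPr the ratios were 0.78, 0.92 and 0.64, all under 2-fold. In mOPr the ratio turned to -3.17 outside M1 and M2. In OPr it depends on the cells counted, with 1.19 outside M1 and M2, 2.44 in range 2 and -1.13 by cluster identity.

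Cx3cl1, the membrane-bound ligand of Cx3cr1, is known for tethering monocytes to endothelium. Its young and old levels were 169 and 125 CPM in MSC-L, 42.4 and 33.2 CPM in MSC-S, 37.4 and 128 CPM in OPr, 53 and 266 CPM in mOPr, 73.1 and 213 CPM in AEC, and 33.7 and 52 CPM in SEC. MSC-L is the highest group in young mice, and mOPr and AEC are the highest in old mice.

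In AEC the log2 ratio of Cx3cl1 was 1.54 (interval 1.48 to 1.61), or 2.91-fold. The level rose in each library range, from 58.1 to 266 CPM, from 95.8 to 201 CPM and from 32.3 to 178 CPM. It also rose in each of 3 endothelial clusters, from 104 to 280 CPM in E3, from 92.4 to 197 CPM in E4 and from 16.4 to 142 CPM in E5. The share of carrying cells went from 36.9% to 62.2% (39.8% to 64.6% after thinning), and the median AEC from 0 to 56.3 CPM. The pooled levels of Cx3cl1 and Cxcl16 in AEC thus moved in opposite directions.

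In SEC the Cx3cl1 ratio was 0.62, with 0.59 without the top cells and 0.84 in E7. In the mesenchymal populations the ratio depends on which cells are counted. In OPr the rise was 3.43-fold (log2 1.78, interval 1.67 to 1.89), but the 10 old cells of M1 and M2 stood at 214 CPM and the 11 others at 0.312 CPM. Young OPr stood at 247 CPM in 3 cells of M1 and M2 and at 13.1 CPM in the other 41. Outside those clusters the ratio was -5.39 (interval -8.44 to -3.53), from 344 counts in young to 2 in old cells. In mOPr the rise was 5.03-fold, with a log2 ratio of 2.33 that shrank to 0.78 outside M1 and M2, and 40.7% of the old counts came from a single cell. In MSC-L the ratio was -0.43, with 0.20 by cluster identity. In MSC-S a single young cell held 78.6% of the young counts, and without the top cells the ratio went from -0.35 to 1.39.

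The ligands of Cxcr2 that attract neutrophils are Cxcl1, Cxcl2, Cxcl3 and Cxcl5, and Cxcl15 is counted with them. Only Cxcl1 passed the filter; values of the others are given because they were seen to be concentrated in a few cells. Cxcl1 stood at 51.9 and 14.2 CPM in young and old MSC-L, 956 and 1219.9 CPM in MSC-S, 0.545 and 781 CPM in OPr, 210 and 578 CPM in mOPr, 126 and 93.7 CPM in AEC, and 10.4 and 5.4 CPM in SEC. MSC-S is the highest group at each age and SEC the lowest in old mice. Cxcl1 is also among the genes that defined the mesenchymal clusters.

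In MSC-S Cxcl1 was carried by 54.2% of young and 57.6% of old cells, and its log2 ratio was 0.35 (interval 0.33 to 0.37), with -1.26 in range 1 and 0.67 in range 2. In mOPr the rise was 2.75-fold, log2 1.46 (interval 1.40 to 1.52), and 2.45 outside M1 and M2. The ratio was 1.90 in range 1, and in range 2 it was 0.94, under 2-fold. A single young mOPr cell held 63% of the young counts. In old OPr the 781 CPM came from 5 cells, with 79.3% of the counts in 1 of them, against 16 counts in all young OPr. In MSC-L 94.8% of the young and 83% of the old counts came from 1 cell. In AEC the ratio was -0.43 with 1.71, -1.82 and 5.94 in library ranges 1, 2 and 3, so no direction is common to the ranges.

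Cxcl2 stood at 35 CPM in young and 34.1 CPM in old MSC-S, carried by 6 and 3 cells, and at 8.84 and 6.57 CPM in AEC, carried by 8 and 5 cells. Old mOPr held 28.5 CPM, of which 99.7% lay in 1 cell, and no other group passed 0.821 CPM. Cxcl3 was seen mainly in young MSC-S, at 14 CPM with 98.6% in 1 cell. Cxcl5 stood at 168 CPM in old mOPr, in 4 cells, against 1 count in young mOPr, and at 0.57 and 26.8 CPM in young and old MSC-L. All 9 MSC-S cells that carried Cxcl2 also carried Cxcl1, against 52.3% of the rest. In AEC it was 10 of 13 cells (76.9%) against 22.2%, and 66.7% against 26.5% after thinning.

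Cxcl1, Cxcl2, Cxcl3 and Cxcl5 lie in 1 cluster on chromosome 5, and 3 of these promoters are printed because they share a pattern. Promoter sequences are those of RefSeq on GRCm38.p6, from 250 bases before to 50 bases after each gene's start, and 25 of the 36 ligands matched by symbol, with 31 promoters. The NF-kB type pattern (GGG, any 3 bases, then TTCC), on either strand, was found in 1825 of 32851 promoters (5.56%) and in 7 of the 31 (22.6%): those of Ccl1, Ccl9, Ccl20, Cxcl1, Cxcl2, Cxcl3 and Cxcl10. The letters TATAAA occurred in 9 of the 31 (29%) against 8.32% of all promoters. Position was not part of this search, so these are not counted as TATA boxes. They lay 27 to 32 bases before the start in Cxcl3, Cxcl15, Ccl12 and Ccl8. In the others they lay from 195 (Cxcl9) to 6 bases (Cx3cl1) before it. The 120 bases before each start are given, plus strand, for Cxcl1 at chr5:90891125-90891244, Cxcl2 at chr5:90903779-90903898 and Cxcl3 at chr5:90785981-90786100. Capitals mark matches on either strand, and overlapping matches run together. Each stretch holds 3 matches. The 3 genes are related copies, so their shared bases are not separate findings, and a match is a description of the sequence, and its use in these cells was not tested.
Cxcl1: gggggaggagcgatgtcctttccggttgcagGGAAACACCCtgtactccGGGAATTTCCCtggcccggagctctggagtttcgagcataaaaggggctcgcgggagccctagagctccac
Cxcl2: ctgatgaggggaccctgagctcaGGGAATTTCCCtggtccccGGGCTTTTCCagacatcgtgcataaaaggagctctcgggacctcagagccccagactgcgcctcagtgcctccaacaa
Cxcl3: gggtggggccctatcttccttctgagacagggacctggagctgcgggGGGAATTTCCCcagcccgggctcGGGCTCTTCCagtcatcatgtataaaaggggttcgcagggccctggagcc

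The ligands of Cxcr3 are the interferon-induced Cxcl9, Cxcl10 and Cxcl11, which attract activated T cells. The gene annotation types Cxcl11 as a polymorphic pseudogene, so its counts do not show that these mice make the protein. Cxcl9 stood at 55.4 and 52.4 CPM in young and old MSC-L, 0.116 and 0 CPM in MSC-S, 0.955 and 8.68 CPM in OPr, 0 and 64.2 CPM in mOPr, 0.717 and 10.1 CPM in AEC, and 83.7 and 49 CPM in SEC. Cxcl10 stood at 5.13 and 2.15 CPM in MSC-L, 49.1 and 4.62 CPM in MSC-S, 3.34 and 0 CPM in OPr, 0.548 and 81.5 CPM in mOPr, 6.77 and 12.6 CPM in AEC, and 97.6 and 35.4 CPM in SEC. Both are highest in SEC among young groups. The old mOPr levels come from 4 cells for each ligand, and the young MSC-S level of Cxcl10 comes to 98.5% from 1 cell.

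In SEC Cxcl10 fell by 1.46 on the log2 scale (interval of the ratio -1.59 to -1.34), a 2.76-fold fall. The share of SEC carrying it went from 20% to 7.04%, and from 24.3% to 15.7% after thinning. A single old cell held 88.7% of the old counts, and without the top cells the ratio was -3.93. Cxcl9 had a ratio of -0.77 (interval -0.88 to -0.66) and was carried by 32.9% of young and 26.8% of old SEC. Of SEC that carried Cxcl10, 52.6% carried Cxcl9, against 26.2% of the rest; after thinning the shares were 46.4% and 28.6%. The make-up of SEC also changed: arteriolar markers rose from 314 to 1079.8 CPM, and cluster E7, with 103 SEC among its 105 cells, held 61 young and 44 old cells; the part of this shift in the result was not tested. In E7 the levels were 115 and 55.3 CPM for Cxcl10 and 86.3 and 63.9 CPM for Cxcl9, smaller falls with log2 ratios of -1.05 and -0.43. In MSC-L the ratio of Cxcl9 was -0.08 (interval -0.20 to 0.04), made of -1.50 in range 1 and 1.62 in range 2. The counts of Cxcl10 and Cxcl11 may include reads of Art3 and Gm2673 on the opposite strand.

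The ligands of Ccr2, which draw monocytes out of the marrow, are Ccl2, Ccl7, Ccl8 and Ccl12. Ccl2 stood at 32 and 70.5 CPM in young and old MSC-L, 328 and 275 CPM in MSC-S, 0.17 and 0.0624 CPM in OPr, 0 and 336 CPM in mOPr, 27.5 and 0.115 CPM in AEC, and 4.33 and 0 CPM in SEC. Ccl7 stood at 2.41 and 3.95 CPM in MSC-L, 230 and 609 CPM in MSC-S, 0 and 3.06 CPM in OPr, 16.6 and 282 CPM in mOPr, 0.115 and 0.115 CPM in AEC, and 2.1 and 0 CPM in SEC. Both are high in MSC-S at either age and in old mOPr, and low elsewhere apart from Ccl2 in MSC-L and young AEC. The young AEC level comes to 92.9% from 1 cell, and the young MSC-S level of Ccl2 to 97%.

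Ccl7 rose 2.65-fold in MSC-S, with a log2 ratio of 1.41 (interval 1.37 to 1.44). Its direction differs between library ranges: from 122 to 11.7 CPM in range 1 (-3.39) and from 289 to 811 CPM in range 2 (1.49). Carrying cells went from 18.6% to 27.1%, and a single cell held 40.8% of young and 41.5% of old counts. The old level is concentrated in cluster M9, made of 10 old MSC-S cells, 9 of them in range 2. M9 stood at 2694 CPM of Ccl7, 3026 CPM of Cxcl1, 929 CPM of Ccl2 and 608 CPM of Cxcl14. The 49 old MSC-S cells outside M9 stood at 42.8 CPM of Ccl7, 729 CPM of Cxcl1, 96.9 CPM of Ccl2 and 308 CPM of Cxcl14. All ligands together reached 7484 CPM in M9. M9 holds no young cell and Cxcl1 helped to define the clusters, so the cells outside M9 are not compared with young cells.

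Ccl2 in MSC-S gave a log2 ratio of -0.25, but 97% of the young counts lay in 1 cell and without the top cells the ratio was 3.89. In MSC-L it rose 2.2-fold, log2 1.14 (interval 1.01 to 1.27). There 13.2% of young and 12.1% of old cells carried it, 56.3% of old counts lay in 1 cell, and the ratio fell to 0.84 without the top cells. Its direction differs between library ranges, from 38.9 to 11.1 CPM in range 1 and from 28.1 to 103 CPM in range 2. The Ccl2 result in MSC-L thus rests on few cells and on range 2.

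In mOPr Ccl2 went from 0 counts in 26 young cells to 4194 counts in 26 old cells, at least 1633-fold over the floor of 3 counts. This bound is 10.67 on the log2 scale, 10.37 at the lower end of its counting interval, 9.96 without the top cell and 8.60 after thinning. The old counts came from 7 cells (26.9%), with 38.8% in the top cell. Ccl7 rose 17-fold there, log2 4.09 (interval 3.90 to 4.28), from 3.85% to 23.1% of cells, and 99.6% of the young counts lay in 1 cell. Without the top cells the ratio was 11.22, so the size of the fold depends on that cell. Outside M1 and M2 the Ccl2 bound was 10.76 and the Ccl7 ratio 4.45. The 12 old cells there all lie in M5, against 7 of the 24 young cells, so the ages differ in cluster too. Both ligands were present on either side of the cluster split in old mOPr. The 14 cells of M1 or M2 stood at 301 CPM of Ccl2 and 192 CPM of Ccl7, and the 12 cells of M5 at 374 and 381 CPM.

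Ccl11 attracts eosinophils through Ccr3. It stood at 0 and 0.308 CPM in young and old MSC-L, 48.3 and 50.8 CPM in MSC-S, 0.136 and 0.0624 CPM in OPr, 90.2 and 393 CPM in mOPr, 0.0287 and 0.086 CPM in AEC, and 0 and 0 CPM in SEC. It is found almost only in MSC-S and mOPr; 1 old MSC-L cell also carried it. In MSC-S the intervals overlap, 46 to 50.7 CPM in young and 48.6 to 53.1 CPM in old cells. In mOPr it rose 4.36-fold, log2 2.12 (interval 2.04 to 2.21), and 3.13 outside M1 and M2; old cells of M5 stood at 831 CPM. As for Ccl7, 99.6% of the young mOPr counts lay in 1 cell, and without the top cells the ratio was 9.42. Ccl8, named after its values were seen, was found in old MSC-S only, at 16 CPM (628 counts in 7 cells). Ccl12 was found in SEC only, at 4.97 and 2.46 CPM.

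**Figure D2:**
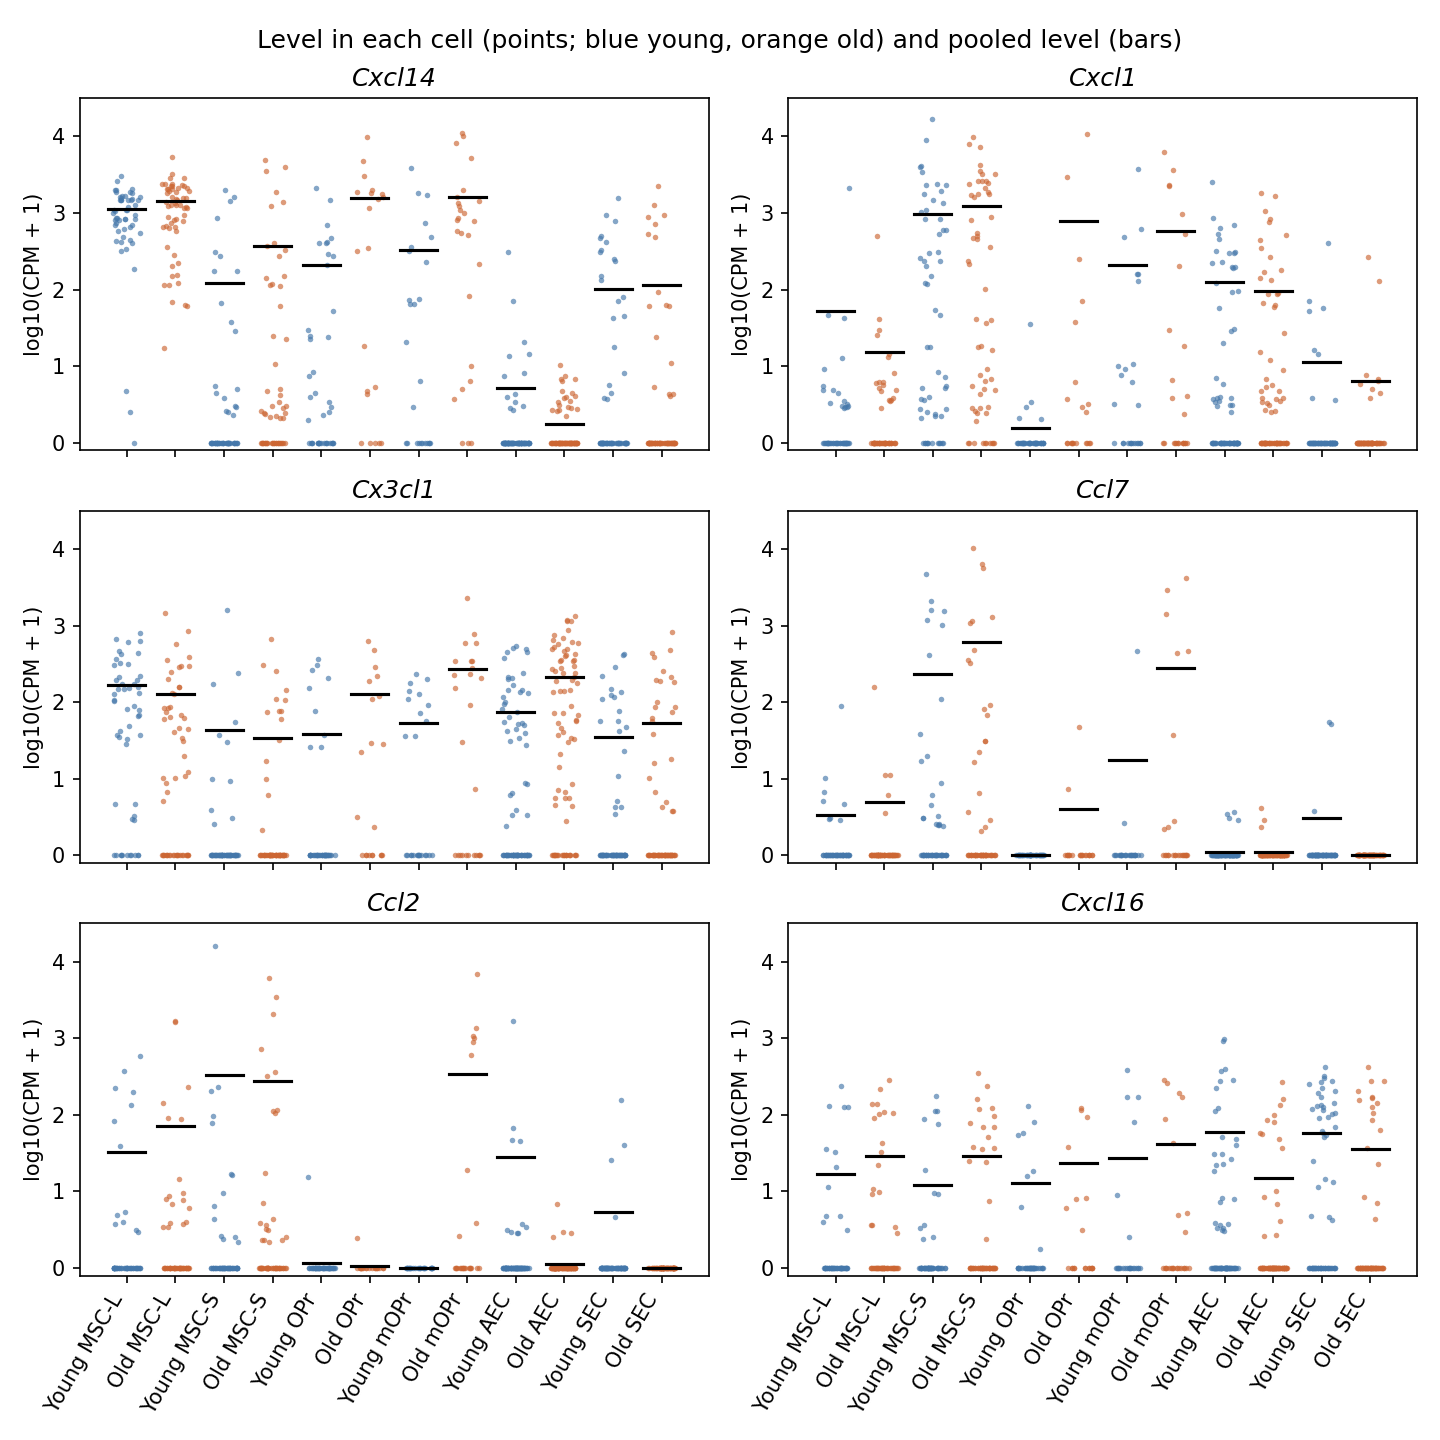
Level of 6 ligands in each cell, as log10 of CPM plus 1, by population, with young cells in blue and old cells in orange and bars at the pooled level. Cxcl14 in MSC-L and Cx3cl1 in old AEC are spread over most cells, while Ccl2 and Ccl7 lie in few cells with high values.

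These ligands tended to share cells. In MSC-S, 11 of the 17 cells that carried Ccl2 also carried Ccl7 (64.7%), against 15.8% of the rest, and thinning gave 71.4% and 19.6%. In mOPr it was 5 of 7 cells (71.4%) against 4.44%, with 62.5% and 4.55% after thinning. Of MSC-S that carried Ccl7, 77.8% carried Cxcl1, against 49.5% of the rest; thinned shares were 70.6% and 52.4%. All 7 mOPr cells with Ccl11 carried Cxcl1, against 17.8% of the rest, and thinning gave 87.5% and 31.8%. Ccl2, Ccl7, Ccl11, Ccl12 and Ccl8 lie next to each other on chromosome 11, with Ccl2 at chr11:82035571-82037453, Ccl7 at chr11:82045712-82047525 and Ccl11 at chr11:82057823-82062955. Of the 36 ligands, 12 lie on chromosome 11 and 11 on chromosome 5.

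Ccl9 is a CC ligand known from myeloid cells. It stood at 43.4 and 5.49 CPM in young and old MSC-L, 2.55 and 3.39 CPM in MSC-S, 0.784 and 12.5 CPM in OPr, 35.1 and 13.9 CPM in mOPr, 0 and 0.115 CPM in AEC, and 2.1 and 25 CPM in SEC. MSC-L is the only population where it passed. There it fell 7.91-fold, log2 -2.98 (interval -3.29 to -2.69), and carrying cells went from 20.8% to 8.62%. The intervals of the levels do not overlap, 40.7 to 46.2 CPM in young and 4.5 to 6.63 CPM in old cells. The ratio was -1.19 in range 1 and -4.84 in range 2, and -3.13 without the top cells. The young mOPr level came from 1 cell.

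The old SEC level of Ccl9 came to 97.7% from the blood-marker cell. That cell, in cluster E6, held 3832 CPM of Ccl3, 1908 CPM of Ccl4, 1114 CPM of Ccl9 and 894 CPM of Ccl6, ligands named here after their values were seen. With it, Ccl3 in old SEC stood at 85.1 CPM and Ccl4 at 42 CPM; without it they stood at 1.09 and 0.148 CPM. Ccl6 went from 19.6 to 0 CPM and Ccl9 from 25 to 0.592 CPM. Leaving out the 3 kept blood-marker cells (2 old OPr and 1 old SEC) could change ratios in OPr and SEC only. The ligands that passed the filter there had no count in these cells, apart from 17.4 CPM of Cxcl14 in 1 old OPr cell. Little change was therefore possible, and the OPr and SEC ratios stayed inside their 95% intervals.

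Cxcl13, the B cell attractant that binds Cxcr5, is named because its values were seen to differ by age. It did not pass the filter, since too few MSC-L cells carried it. Young MSC-L had 2 counts (0.0877 CPM) and old MSC-L had 141 CPM (interval 136 to 146), carried by 9 cells (15.5%). The log2 ratio was 10.65 with a counting interval of 8.80 to 13.70. Per kilobase it ranked second in old MSC-L after Cxcl14, at 123. Old OPr held 31.7 CPM and old SEC 2.94 CPM. The remaining ligands were low: Ccl25 reached 9.72 CPM in young MSC-S, Ccl17 reached 4.46 CPM in old MSC-L, and Ccl27a reached 4.36 CPM in young OPr. Ccl25 and Ccl27a overlap Elavl1 and Il11ra1 on the opposite strand, and Ccl19, Ccl21a, Ccl21b, Ccl27a and Ccl27b have near-identical copies that make their counts uncertain.

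**Figure D3:**
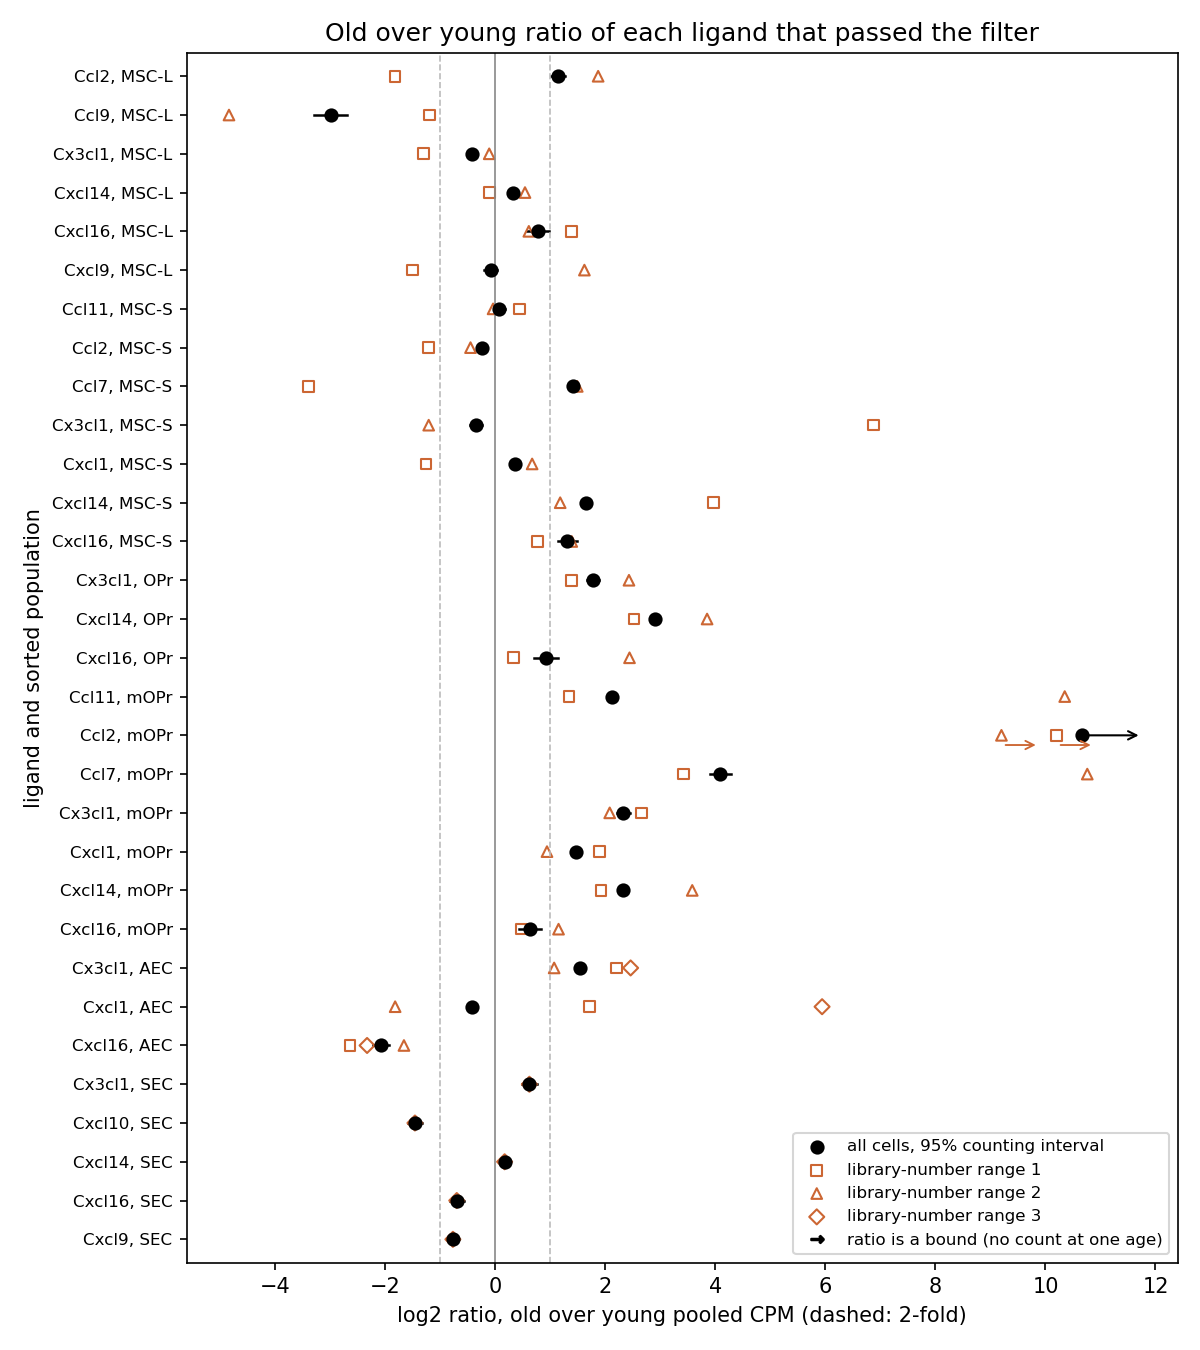
The 31 log2 ratios of old to young with 95% counting intervals, by population. Squares, triangles and diamonds give library ranges 1, 2 and 3, dashed lines mark 2-fold and the arrow marks a lower bound; ranges lie on opposite sides of 0 for several ligands.

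Among the receptors, Ccr8, Cxcr1 and Cxcr2, named after their values were seen, had no count in any of the 12 groups. Atypical receptors, which take up ligands without signalling for migration, were abundant. Ackr1 stood at 1557 and 893 CPM in young and old SEC (log2 -0.80) and at 224 and 127 CPM in AEC. Ackr4 stood at 825 and 773 CPM in MSC-L and at 74.2 and 47.3 CPM in SEC. Ackr1 overlaps Cadm3 on the same strand and Ackr4 overlaps Acad11 on the opposite strand, which makes these counts less certain. Ackr3 stood at 751 and 1226 CPM in MSC-S (log2 0.71), 255 and 275 CPM in AEC, and 445 and 93.8 CPM in mOPr (log2 -2.25). Ackr2 stood at 127 and 117 CPM in MSC-S and at 117 and 0.0801 CPM in mOPr, where the old value is 1 count. Ackr4 rose from 98.1 to 434 CPM in OPr and from 72.5 to 345 CPM in mOPr, and fell outside M1 and M2, with ratios of -4.55 and -7.68.

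For comparison, Cxcl12 stood at 48750.1 and 39599 CPM in young and old MSC-L (log2 -0.30), 297 and 847 CPM in MSC-S (1.51), 4525 and 26290.1 CPM in OPr (2.54), 552 and 18595 CPM in mOPr (5.07), 2343 and 2855 CPM in AEC (0.29), and 5519 and 3570.5 CPM in SEC (-0.63). In mOPr its ratio was 2.91 outside M1 and M2. The pooled ratios of Cxcl12 and Cxcl14 thus had the same sign in MSC-S, OPr and mOPr and opposite signs in MSC-L and SEC. Cxcl14 did not pass the filter in AEC, so no sign is read there. For Cxcl12 in OPr no ratio outside M1 and M2 is given. In mOPr outside M1 and M2 the ratio of Cxcl14 was -0.04, so the shared sign is lost there. The sign of Cxcl14 is not firm in SEC, where its ratio was -0.16 without the top cells, or in MSC-L, where it was -0.11 in range 1. The platelet ligand Ppbp went from 3.38 to 580 CPM in MSC-L, and its log2 ratio of 7.42 fell to 1.00 without the top cells. Over all kept cells Pf4 stood at 19.5 CPM, with 77.2% of its counts in 1 cell, and Xcl1 had no count.

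The 8 cells left out were all in cluster M5 and each carried at least 11 of the 15 blood-cell markers. Together they held 53900.0 CPM of those markers, 16118 CPM of S100a9 among them, and 11.9 CPM of the 10 mesenchymal markers. Their Il1b ran from 1229 to 29523 CPM, while the highest kept cell had 61.5 CPM. Their ligands, named after the values were seen, were Cxcl2 at 1950.0 CPM (53.6% of the ligand sum) and Ccl6 at 1494 CPM (41.1%), each carried by 7 of 8 cells. Ccl3 stood at 136 CPM, Ccl4 at 24.6 CPM, Cxcl3 at 21.7 CPM and Ccl5 at 9.52 CPM, against 1.31 CPM of Cxcl1 and 0.933 CPM of Cxcl14. With these cells kept, Cxcl14 in old OPr would stand at 1160.1 CPM (log2 2.48) and Cx3cl1 at 96.3 CPM (log2 1.36).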

How the data were processed

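The counts are those the authors deposited: reads aligned with GSNAP 2015-09-29 to GRCm38.p4 and counted per gene with HTSeq without strand. Of 46078 gene entries, 270 repeated a symbol, and their counts were summed with those of the same symbol. The 37 mitochondrial genes were left out, leaving 45771 genes. Levels are summed counts over summed nuclear counts, scaled to CPM. Intervals are exact Poisson for levels and conditional binomial for ratios, both at 95%. Where a group had no count, a floor of 3 counts over the group gave a lower bound. Old OPr cells with Il1b at 1000 CPM or more (8 cells) were left out. Exon lengths and positions are from GENCODE M21. Genes are named if they are ligands or receptors that passed the filter in at least 1 population; others are named after their values were seen. The ligands, marker lists and filters were chosen with earlier results of these data known. The code was tested on simulated data. Calculations ran in scipy 1.17.1 and pandas 2.3.3 with numpy 2.4.6 under Python 3.11.15; drawings were made with matplotlib 3.10.9.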

Additional observations from a re-analysis of the deposited data

Results flagged for a closer look

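Cxcl16 had a log2 ratio of old to young of 1.31 in MSC-S and of -2.08 in AEC, so the same ligand rose in a mesenchymal population and fell in an endothelial population from the same tissue. The difference between the 2 populations was not tested.

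The 8 old OPr cells left out for high Il1b held 1950.0 CPM of Cxcl2, 1494 CPM of Ccl6 and 136 CPM of Ccl3. Pooled over all kept cells these ligands stood at 11.5, 2.12 and 5.95 CPM. The highest single kept cells reached 1167, 894 and 3832 CPM. The values of Ccl6 and Ccl3 are those of the old SEC blood-marker cell. It held 63.6% of the kept Ccl6 counts and 97.3% of the kept Ccl3 counts. The difference from the kept cells was not tested.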

How the results depend on the processing

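Of the 16 ratios called at 2-fold, 4 changed direction under some setting, and the cause was not tested. Ccl2 in MSC-L went from 1.14 to -1.82 in library range 1, and Ccl7 in MSC-S from 1.41 to -3.39 in range 1. Outside clusters M1 and M2, a choice added after the data were seen, Cx3cl1 in OPr went from 1.78 to -5.39 and Cxcl14 in mOPr from 2.32 to -0.04. Of the 15 ratios under 2-fold, 11 changed direction under at least 1 setting.

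A count of called ligands is listed as moved when it changed by more than 1.5-fold, or from or to 0. The filter was applied anew under each setting, so the ligands counted can differ too. Shares of all genes called are given above for the main setting and outside M1 and M2 only. The other counts below therefore have no background beside them and are not read as results about the ligands. In MSC-L the 1 higher became 0 without the top cell, 4 without the share filter, 2 in range 2 and 0 at 3-fold; the 1 lower became 2 after thinning, 3 without the share filter, 4 in range 1, 2 in range 2 and 2 by cluster identity. In MSC-S the 3 higher became 5 without the top cell, 1 in range 1 and 1 at 3-fold; the 0 lower became 4 without the share filter, 2 in range 1 and 1 in range 2. In OPr the 2 higher became 4 with the Il1b cells kept, 7 without the share filter, 4 in range 1, 5 by identity and 1 outside M1 and M2; the 0 lower became 1 without the share filter, in range 2, by identity and outside M1 and M2.

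In mOPr the 6 higher became 10 without the share filter and, within 1.5-fold, 4 outside M1 and M2; the 0 lower became 1 without the share filter, in range 2 and outside M1 and M2. In AEC the 1 higher became 2 without the share filter, 2 in range 1, 3 in range 3 and 0 at 3-fold; the 1 lower became 4 without the share filter and 2 in range 2. In SEC the 0 higher became 4 without the share filter; the 1 lower became 2 without the share filter and 0 at 3-fold.

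Of 146 counts, 37 moved by this rule and 109 did not; 100 were identical. Of 62 shares of cells, 61 stayed after thinning inside the 95% interval of the share before it; young mOPr with Cxcl1 did not, 23.1% before and 46.2% after. Without the blood-marker cells, 31 of 31 ratios stayed inside their counting intervals, but only OPr and SEC lost cells. The cells lost held almost none of the ligands that passed the filter there, so the ratios could hardly move.

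No paired analysis was possible because the labels name no mouse. Each group is 1 pooled sample, so variation between animals is unknown and the intervals understate the error. Many ligands lie in few cells, and old OPr has 21 cells. Population differences between tissues cannot be told apart from digestion, nor those between SEC and mesenchymal cells from library range. Proteins were not analysed here.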
